A study of Mus musculus with 12 samples.

Results

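Trophectoderm is the first epithelium of the mouse embryo, and 10 genes that mark it or the placenta it forms were followed in embryonic stem cells that express PRAMEL7. They are *Tead4*, *Cdx2*, *Gata3*, *Elf5*, *Tfap2c*, *Hand1*, *Ascl2*, *Krt8*, *Krt18* and *Krt19*. The choice was made by symbol, with earlier results of these data known. All 10 were found among the 48077 genes of the deposited table that could be matched to the annotation. Of these 10, 6 reached the expression filter of more than 1 CPM (reads per 1000000 reads on genes) in at least 2 of the 6 libraries and were tested, among 12991 genes in all. *Cdx2*, *Elf5*, *Gata3* and *Ascl2* did not reach it.

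Polyadenylated RNA was sequenced from E14 mouse embryonic stem cells (ESCs) kept in 15% serum with LIF, with 2 libraries, from separate dishes per the labels, for each of 3 lines. Parental ESCs carried no insertion. ESC + H/F-PRAMEL7 WT carried an HA/FLAG-tagged PRAMEL7 and ESC + H/F-PRAMEL7 ΔN the same protein without the N-terminus. The deletion is of 50 amino acids in the labels and shorter in the study's text. The N-terminus is the region through which PRAMEL7 binds the ubiquitin ligase scaffold CUL2. Both PRAMEL7 sequences had been put into the *Rosa26* locus with Cas9 under the ubiquitous CAG promoter, with puromycin selection. Each of these 2 derived lines had been grown from a single cell. They are called the WT line and the ΔN line below. A derived line is therefore 1 clone, and the p-values below measure the spread between dishes of the lines, not between independent insertions. The study describes no selection or cloning for parental ESCs. Such steps and PRAMEL7 cannot be told apart in a comparison with parental ESCs. The comparisons ask which transcripts respond to PRAMEL7 and which of these responses need the N-terminus.

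In the preimplantation embryo the outer cells become trophectoderm, which builds the placenta, and the inner cells become the inner cell mass, from which ESCs derive. TEAD4 with its coactivator YAP switches on *Cdx2* and *Gata3* in outer cells, where Hippo signalling is low. CDX2, GATA3, ELF5 and TFAP2C hold trophoblast stem cells in their fate, HAND1 drives the giant cell lineage, ASCL2 acts in the spongiotrophoblast, and keratins 8, 18 and 19 form the intermediate filaments of the trophectoderm epithelium. ESCs rarely turn into trophoblast, and methylation of the *Elf5* promoter is one known barrier between the fates.

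Promoter sequences are shown for *Elf5*, the member with 0 reads in both ΔN libraries, and for *Krt8* and *Krt18*, which lie side by side on chromosome 15 and moved together in one line. They come from the RefSeq promoter table (build GRCm38.p6, 250 bases before to 50 after a start, 5′ to 3′ on the strand of the gene), and capitals mark CpG dinucleotides, the sites of DNA methylation. The 4 stretches are chr2:103411848-103412147 and chr2:103423818-103424117 on the plus strand for 2 starts of *Elf5*, chr15:102004293-102004592 on the minus strand for *Krt8* and chr15:102027966-102028265 on the plus strand for *Krt18*.
Elf5, upstream start: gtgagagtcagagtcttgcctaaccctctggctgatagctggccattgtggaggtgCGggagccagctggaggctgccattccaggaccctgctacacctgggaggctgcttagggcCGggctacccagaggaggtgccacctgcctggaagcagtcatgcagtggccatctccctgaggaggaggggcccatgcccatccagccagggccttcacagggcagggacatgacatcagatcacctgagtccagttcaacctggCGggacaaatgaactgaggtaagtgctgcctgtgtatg
Elf5, downstream start: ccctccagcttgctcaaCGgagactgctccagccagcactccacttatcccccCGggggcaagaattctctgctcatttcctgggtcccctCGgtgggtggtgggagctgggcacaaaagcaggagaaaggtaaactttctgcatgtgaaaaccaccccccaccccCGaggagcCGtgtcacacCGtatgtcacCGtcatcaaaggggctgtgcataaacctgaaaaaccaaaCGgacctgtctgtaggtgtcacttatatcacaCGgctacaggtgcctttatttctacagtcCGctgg
Krt8: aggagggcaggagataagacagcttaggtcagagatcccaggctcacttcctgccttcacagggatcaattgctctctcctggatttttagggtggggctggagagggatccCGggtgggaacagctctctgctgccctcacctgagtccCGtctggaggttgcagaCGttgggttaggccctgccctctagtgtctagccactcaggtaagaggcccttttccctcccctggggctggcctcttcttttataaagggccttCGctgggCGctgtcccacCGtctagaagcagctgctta
Krt18: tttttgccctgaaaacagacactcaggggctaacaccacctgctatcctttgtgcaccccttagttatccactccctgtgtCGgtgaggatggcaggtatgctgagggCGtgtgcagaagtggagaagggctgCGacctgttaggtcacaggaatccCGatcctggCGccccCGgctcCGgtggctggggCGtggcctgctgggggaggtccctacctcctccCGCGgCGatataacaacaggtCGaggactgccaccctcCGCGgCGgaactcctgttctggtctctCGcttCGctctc

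The promoters of these genes are of unlike kinds. The upstream *Elf5* start holds 3 CpG and the downstream one 10, against a median of 7 over the 32851 promoters of the same length in the table. *Krt8* holds 6 and *Krt18* 17. *Cdx2*, *Gata3* and *Ascl2* lie in CpG-rich sequence, with 18, 22 and 23 CpG. As the ratio of observed to expected CpG, the upstream *Elf5* start reached 0.11, *Krt8* 0.238, the downstream *Elf5* start 0.442, *Krt18* 0.603, *Gata3* 0.658, *Ascl2* 0.685 and *Cdx2* 0.731, with a median of 0.384 over the table. No entry was used for *Hand1*, *Tfap2c*, *Tead4* and *Krt19*. The CpG content did not sort the genes by level, since the CpG-poor *Krt8* was among the well expressed members and the CpG-rich *Cdx2* and *Gata3* were near 0 reads.

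The same promoters were searched on both strands for short motifs of the factors discussed here. Position -1 is the last base before the start, and the first base of a match is given. The TEAD motif, spelled GGAATG, lay at -173 of the upstream *Elf5* start and is found in 14.7% of the promoters in the table. The AP-2 motif of factors such as TFAP2C was taken as GCCNNNGGC. It was found at -16 in *Cdx2*, at -83 in *Krt18* and at -246, -231 and -221 in *Gata3*, and in 16.6% of all promoters. *Krt8* held the GATA motif, AGATAA, at -239, which 11.2% of all promoters hold. The CDX motif was written as TTTATNG and is held by 10.9% of all promoters, but by none of these windows. The same was true of an E-box, given as CATCTG and held by 17.2% of all promoters. Neither the downstream *Elf5* start nor *Ascl2* held any of the 5 motifs. No window held matches of more than 1 motif, so different motifs did not overlap. Matches were not tested for binding.

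Between genes, levels were compared as CPM divided by the exon length in kb. In parental ESCs *Tfap2c* led with 20.9 ± 6.59 (SD, n = 2 libraries), followed by *Tead4* with 15.1 ± 1.46, *Krt18* with 10.4 ± 1.70, *Krt19* with 9.48 ± 2.22 and *Krt8* with 8.13 ± 1.34. The lower *Tfap2c* library, with 16.2, was level with the higher *Tead4* library, with 16.1. Each keratin overlapped with the next in this order. *Ascl2* with 0.658 ± 0.437 and *Hand1* with 0.29 ± 0.0271 stood far below them, and *Cdx2*, *Elf5* and *Gata3* were lower still and overlapped, with 0.0473 ± 0.0347, 0.0447 ± 0.0111 and 0.033 ± 0.00821. The genes that name the trophectoderm fate were thus near 0 in these cells, while 2 transcription factors and 3 keratins of that tissue were expressed.

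**Figure D1:**
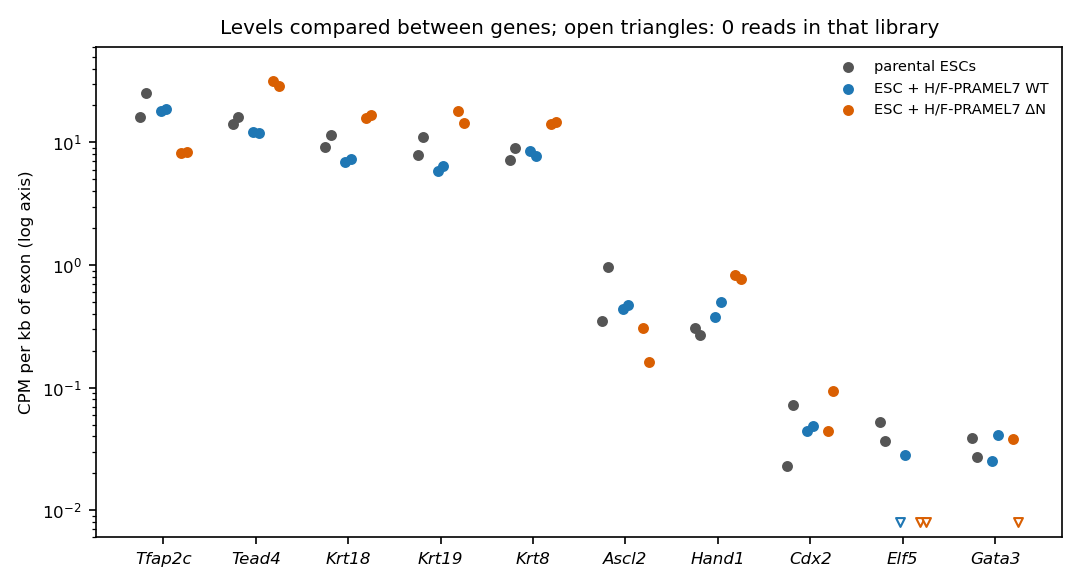
CPM per kb of exon (log axis) of the 10 genes, ordered by their mean in parental ESCs, with one point per library and colours for the 3 lines. The first 5 genes lie between 5.80 and 31.5 in every library, *Ascl2* and *Hand1* between 0.162 and 0.967, and *Cdx2*, *Elf5* and *Gata3* under 0.1, with open triangles for libraries that held 0 reads.

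The order changed between the lines. In the ΔN line *Tead4* led with 30.1 ± 1.98 CPM per kb of exon (SD, n = 2), the keratins followed with 14.4 ± 0.533 for *Krt8*, 16.2 ± 2.57 for *Krt19* and 16.3 ± 0.735 for *Krt18*, and *Tfap2c* fell behind them with 8.31 ± 0.109. In the WT line *Tfap2c* kept the lead with 18.3 ± 0.562, ahead of *Tead4* with 12 ± 0.269, *Krt8* with 8.14 ± 0.583, *Krt18* with 7.1 ± 0.213 and *Krt19* with 6.12 ± 0.464. In the ΔN line the libraries of *Krt19* overlapped with those of *Krt8* and of *Krt18*, whereas in the WT line the 3 keratins did not overlap.

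The sequencing resolved the first 5 genes well and the last 3 poorly. Each library held between 18250070 and 19831278 reads on genes, recovered from the deposited RPKM values, so that 3 reads, the limit that a count of 0 allows, correspond to 0.151 to 0.165 CPM. *Pramel7*, the check of the labels, had 5 and 4 reads in the parental libraries, 1007 and 838 in the WT line and 7893 and 8123 in the ΔN line. The mean level in the ΔN line was 8.50-fold that in the WT line, so the deletion and the higher level cannot be told apart in any difference between these 2 lines, and the values do not show the deletion itself. The 9 pluripotent stem cell markers all passed the filter. Their summed level was 5381 to 5996 CPM in parental ESCs and the WT line and 6418 and 6532 in the ΔN line. The sum hides calls of single markers. Relative to parental ESCs, *Klf4*, *Zfp42*, *Nanog* and *Tdgf1* were lower and *Utf1* higher in the WT line, or 4 and 1 of 9. Over all tested genes 16.3% were lower and 8.67% higher there. In the ΔN line 1, *Dppa5a*, was higher and 0 were lower, against 6.2% and 13.5%. The RNA is from whole cultures, so fewer cells of a type and less RNA per cell cannot be told apart for any gene below.

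*Tead4* (chr6:128224288-128300823, minus strand, build mm10) encodes the DNA-binding partner of YAP that starts the trophectoderm programme. It had 50.6 and 58.1 CPM in parental ESCs, 43.9 and 42.5 in the WT line and 113 and 103 in the ΔN line. Both ΔN libraries stood above the other 4 libraries, and both WT libraries stood below the parental ones. In the ΔN line it was upregulated with a log2 fold change of 0.98 over parental ESCs (95% interval 0.75 to 1.22, limma adjusted p = 0.000375), and the ratio of the mean CPM was 1.99. In the WT line it was downregulated by a log2 fold change of -0.32 (interval -0.55 to -0.09, limma adjusted p = 0.0477), a call that was lost under 14 of 17 alternatives, and it fell by 1.30 on the log2 scale relative to the ΔN line (limma adjusted p = 6.36e-05).

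Whole chromosomes were shifted between these lines, and chromosome 6 was one of them. Over 607 other tested genes of chromosome 6 the median log2 fold change was 0.25 in the ΔN line and -0.25 in the WT line, against -0.06 and -0.08 over all genes tested. The 3 nearest tested genes on each side of *Tead4*, from *Prmt8* to *Foxm1*, had a median of 0.49 in the ΔN line, and 5 of these 6 were higher there. With each library centred on the median of each chromosome, *Tead4* kept a log2 fold change of 0.80 in the ΔN line (limma adjusted p = 0.000709), whereas the difference in the WT line shrank to -0.09 (limma adjusted p = 0.568). Whether the shift of the chromosome takes part in the value of *Tead4* was not tested.

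*Tfap2c* (chr2:172549593-172558622, plus strand) encodes AP-2γ, a factor of trophoblast and germ cells that naive ESCs also express. It was the only one of the 6 tested members that was lower in the ΔN line. Its level was 59.6 and 93.9 CPM in parental ESCs, 65.9 and 68.8 in the WT line and 30.3 and 30.9 in the ΔN line. The parental libraries differed more from each other than those of either derived line, and both WT libraries lay between them. Relative to parental ESCs it was downregulated in the ΔN line by a log2 fold change of -1.26 (interval -1.65 to -0.87, limma adjusted p = 0.00147), and relative to the ΔN line it was higher in the WT line by 1.12 (interval 0.72 to 1.51, limma adjusted p = 0.00248). No difference from parental ESCs was called in the WT line, with a log2 fold change of -0.15 and an interval from -0.54 to 0.24 that leaves room for either sign. There the parental libraries decided the value, which was -0.47 without parental replicate 1 (limma adjusted p = 0.00242) and 0.17 without parental replicate 2 (limma adjusted p = 0.213). The 6 nearest tested genes, *Bmp7* among them, ranged from -0.12 to 0.40 in the ΔN line.

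The 3 keratins of simple epithelia followed one course in the ΔN line. *Krt8* (chr15:101996698-102004482, minus strand) is the type II partner that pairs with the type I keratins *Krt18* (chr15:102028180-102032027, plus strand) and *Krt19* (chr11:100140810-100148665, minus strand). *Krt8* and *Krt18* are neighbours in opposite orientation, with 23697 bases between them.

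*Krt8* had 14.1 and 17.8 CPM in parental ESCs, 16.7 and 15.1 in the WT line and 27.4 and 28.9 in the ΔN line. *Krt18* had 13.1 and 16.6, 9.99 and 10.4, and 22.6 and 24.1 CPM in the same order of lines, and *Krt19* had 14.7 and 20.5, 10.8 and 12, and 33.5 and 26.7. For each of the 3, both ΔN libraries stood above the other 4 libraries. For *Krt18* and *Krt19* both WT libraries stood below the parental ones, whereas for *Krt8* they lay between them.

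**Figure D2:**
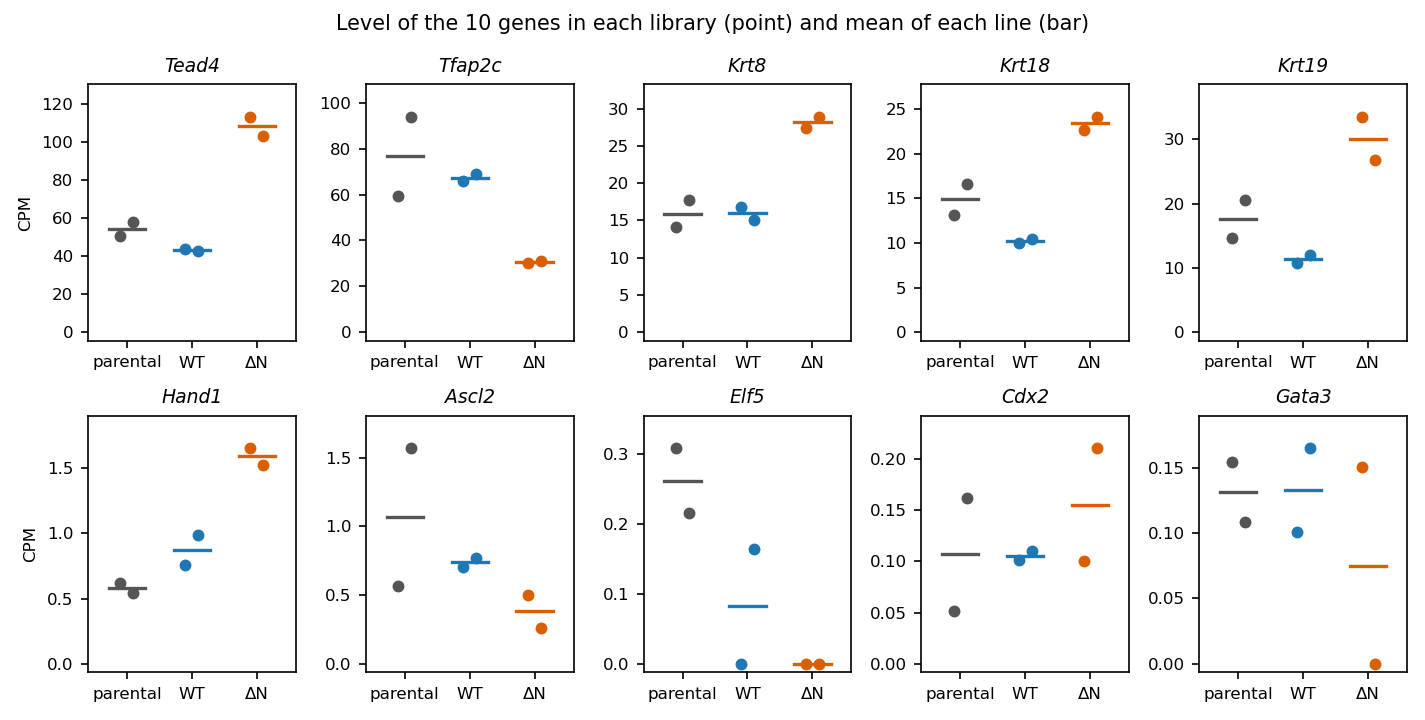
CPM of each of the 10 genes in the 6 libraries (points) with the mean of the 2 libraries of a line (bar); each panel has its own axis from 0. *Tead4*, *Krt8*, *Krt18*, *Krt19* and *Hand1* are highest in both ΔN libraries and *Tfap2c* is lowest there, while *Cdx2*, *Elf5* and *Gata3* stay at or under 0.309 CPM.

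Relative to parental ESCs, the keratins were upregulated in the ΔN line by log2 fold changes of 0.79 for *Krt8* (interval 0.48 to 1.10, limma adjusted p = 0.00444), 0.63 for *Krt18* (interval 0.31 to 0.94, limma adjusted p = 0.0137) and 0.75 for *Krt19* (interval 0.36 to 1.14, limma adjusted p = 0.0154). The intervals of the 3 overlapped. In the WT line *Krt18* and *Krt19* were called and *Krt8* was not. *Krt18* was downregulated by -0.49 (interval -0.81 to -0.18, limma adjusted p = 0.0320) and *Krt19* by -0.57 (interval -0.96 to -0.18, limma adjusted p = 0.0394), while *Krt8* had a log2 fold change of 0.01 with an interval from -0.30 to 0.32. Whether *Krt8* and *Krt18* differ in their response to the WT line was not tested. Between the derived lines the 3 keratins were lower in the WT line, with log2 fold changes of -0.79, -1.12 and -1.33 and limma adjusted p of 0.00457, 0.000833 and 0.00103.

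The upregulation of *Krt8* in the ΔN line kept its call under each of the 17 alternatives run, whereas that of *Krt18* and *Krt19* depended on the ΔN libraries. *Krt18* had a limma adjusted p of 0.0774 without ΔN replicate 1 and 0.104 without replicate 2, and *Krt19* 0.145 without replicate 1 and 0.0625 when no expression filter was used. The calls in the WT line were lost under 10 of 17 alternatives for *Krt18* and 14 of 17 for *Krt19*, among them the fit without parental replicate 2, with a limma adjusted p of 0.0855 and 0.0977. Between the derived lines only the call of *Krt8* among the keratins was lost, with a limma adjusted p of 0.0656 without WT replicate 2 and 0.0596 without ΔN replicate 2. Chromosome 11 was lower in both derived lines, with a median log2 fold change of -0.36 in the WT line and -0.33 in the ΔN line over 1104 other tested genes. After centring on chromosomes, *Krt19* was -0.21 in the WT line (limma adjusted p = 0.382) and 1.09 in the ΔN line (limma adjusted p = 0.00187). Chromosome 15 was not shifted in that way, with medians of 0.03 and -0.06. Reads of processed copies of keratin genes could have been assigned to the parent genes, which the values do not show, and *Krt8-ps*, the one copy found by a search of gene names, held 1 read in 1 library.

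*Hand1* (chr11:57828705-57832818, minus strand) encodes a basic helix-loop-helix factor needed for trophoblast giant cells and also for extraembryonic mesoderm and heart. It was rare in each line, with 12 and 10 reads in parental ESCs, 15 and 18 in the WT line and 33 and 29 in the ΔN line, or 0.618 and 0.541, 0.757 and 0.988, and 1.65 and 1.53 CPM. The 3 lines did not overlap. It passed the expression filter only through the ΔN line, where it was highest, so its being tested depended on that difference. Its log2 fold change in the ΔN line was 0.71 on the log2(CPM + 1) scale (interval 0.32 to 1.11, limma adjusted p = 0.0209), a scale that understates the change of rare transcripts, since the ratio of the mean CPM was 2.74. No difference was called between the WT line and parental ESCs (0.24, interval -0.15 to 0.64, limma adjusted p = 0.334) or the ΔN line (-0.47, interval -0.87 to -0.07, limma adjusted p = 0.0914). Centring on chromosomes raised the first of these values to 0.61, with a limma adjusted p of 0.0394. In the comparison of the ΔN line with parental ESCs, leaving out either ΔN library ended the call, with limma adjusted p of 0.135 and 0.0994. The 6 nearest tested genes moved the other way, with a median of -0.49, and 5 of these 6 were lower in the ΔN line.

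**Figure D3:**
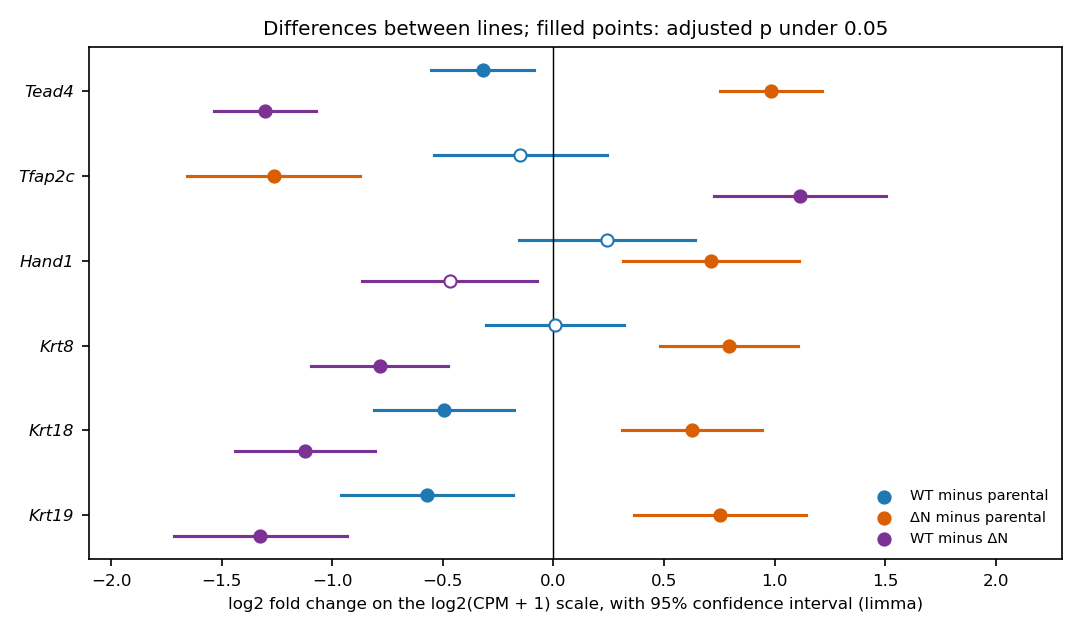
Log2 fold changes (points) and 95% confidence intervals (lines) of the 6 tested genes in the 3 comparisons, from one limma fit of the 6 libraries; filled points had an adjusted p under 0.05. The differences of the ΔN line from parental ESCs lie between 0.63 and 0.98 except for *Tfap2c* at -1.26, and those of the WT line lie between -0.57 and 0.24.

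*Ascl2* (chr7:142966829-142969264, minus strand) encodes an imprinted factor of the placenta. It had 11 and 29 reads in parental ESCs, 14 and 14 in the WT line and 10 and 5 in the ΔN line, which is 1.07 ± 0.709, 0.738 ± 0.0438 and 0.382 ± 0.168 CPM (SD, n = 2). The parental libraries differed by more than the means of any pair of lines, and parental replicate 1 lay inside the range of the derived lines. When genes without expression filter were fitted as well, no comparison of *Ascl2* passed, with a limma adjusted p of 0.246 for the ΔN line.

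*Cdx2* (chr5:147300805-147307270, minus strand), *Gata3* (chr2:9857078-9890034, minus strand) and *Elf5* (chr2:103411688-103450989, plus strand) are the factors that define trophectoderm and trophoblast stem cells. *Cdx2* had 1 and 3 reads in parental ESCs, 2 and 2 in the WT line and 2 and 4 in the ΔN line. *Gata3* had 3 and 2, 2 and 3, and 3 and 0 reads. The libraries of the 3 lines overlapped for both genes. The exact 95% Poisson interval of the summed reads of *Cdx2*, which covers counting error only, was 0.0289 to 0.271 CPM in parental ESCs, 0.0288 to 0.271 in the WT line and 0.0568 to 0.337 in the ΔN line. For *Gata3* the intervals were 0.043 to 0.309, 0.0429 to 0.308 and 0.016 to 0.226 CPM. A difference between the lines was not detectable at this depth.

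*Elf5* encodes the ETS factor that closes the loop with CDX2 and EOMES in trophoblast stem cells. It had 6 and 4 reads in parental ESCs, 0 and 3 in the WT line and 0 and 0 in the ΔN line. The highest values were thus in the parental line, and the derived lines held fewer or none. The Poisson intervals were 0.127 to 0.487 CPM in parental ESCs, 0.0164 to 0.232 in the WT line and 0 to 0.0951 in the ΔN line, so the first and the last did not overlap for counting error. Fitted without expression filter, *Elf5* in the ΔN line had a limma adjusted p of 0.0651. No rise of *Elf5*, whose promoter windows are printed above, was seen in either derived line.

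Counted together, 5 of the 6 tested members were higher and 1 lower in the ΔN line than in parental ESCs, against 6.2% of all 12991 tested genes higher and 13.5% lower. *Hand1*, which entered through its level in the ΔN line, is one of the 5. In the WT line, 0 were higher and 3 lower than in parental ESCs, against 8.67% and 16.3% of all tested genes. By limma at an unadjusted p under 0.05 the count of higher members was also 0, and by voom on whole reads it was 0 with 1 lower. With centring on chromosomes 1 member, *Hand1*, was higher and 1 lower. Between the derived lines, 1 member was higher and 4 were lower in the WT line than in the ΔN line, against 10.9% and 9.41%. The median log2 fold change of the 6 was 0.73 in the ΔN line, -0.23 in the WT line and -0.95 between the derived lines, beside -0.06, -0.08 and -0.02 over all genes tested. The comparisons with parental ESCs share the parental libraries.

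These counts rested unequally on the libraries. The 3 calls in the WT line went to 0 without any one of the libraries other than parental replicate 1, and to 4 without parental replicate 1. The 6 calls in the ΔN line went to 3 without ΔN replicate 1 and to 4 without replicate 2. With median-ratio scaling of the libraries, the calls of all genes in the WT line split into 1749 higher and 1450 lower, against 1126 and 2116, and those in the ΔN line into 1169 and 1326, against 805 and 1758. The members' calls in the ΔN line stayed at 5 higher and 1 lower under that scaling, and those in the WT line went to 0.

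**Figure D4:**
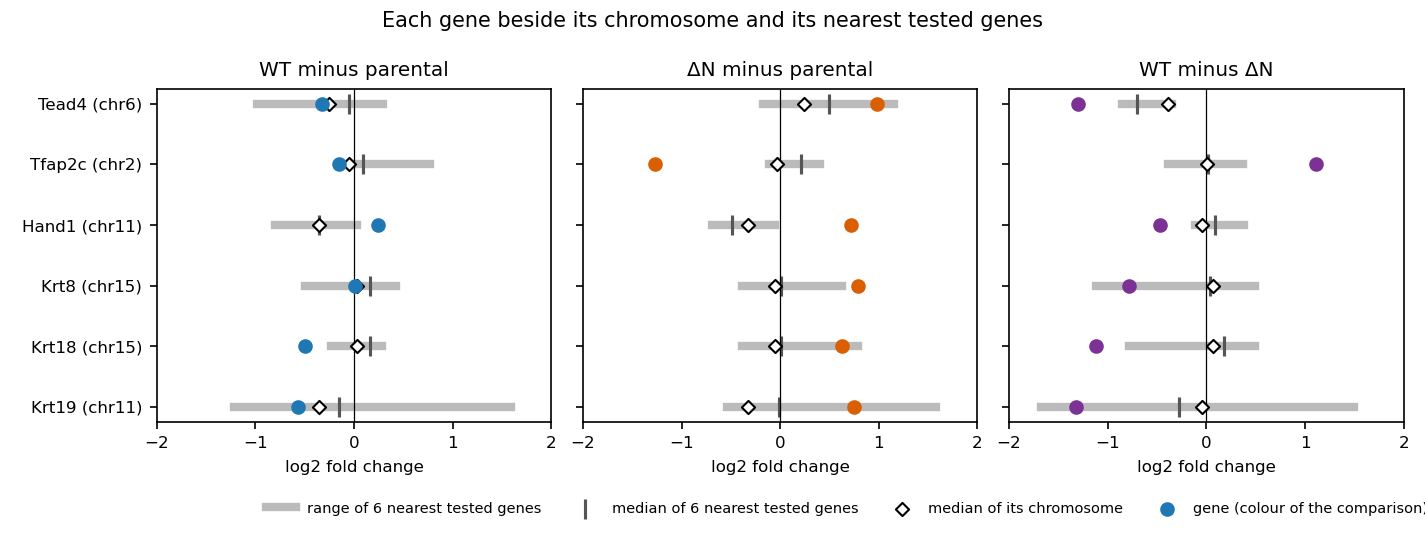
Log2 fold change of the 6 tested genes (filled circles) beside the median of the other tested genes of the chromosome (diamonds) and the median and range of the 6 nearest tested genes (ticks and grey bars), in the 3 comparisons. *Tfap2c* lies outside the range of its neighbours in the ΔN line and *Tead4* inside it, and the diamonds of *Hand1* and *Krt19* show chromosome 11 below 0 in both derived lines.

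Among the genes that act with TEAD4 upstream of *Cdx2*, *Yap1* and *Wwtr1* were not called in either derived line. Of 21 tested genes of Hippo, TEAD and Notch signalling, 5 were higher and 7 lower in the WT line, and 1 was higher and 6 lower in the ΔN line, with median log2 fold changes of 0.07 and -0.06. Over all tested genes the shares were 8.67% higher and 16.3% lower in the WT line and 6.2% and 13.5% in the ΔN line, and the count of higher genes in the ΔN line is near that background. *Yap1*, the coactivator of TEAD factors, had log2 fold changes of 0.15 and 0.05 in the WT line and the ΔN line and *Wwtr1* (TAZ) 0.16 and -0.01, none of them called. *Amot*, the angiomotin that holds YAP out of the nucleus, was downregulated in both derived lines, from 9.57 and 9.25 CPM in parental ESCs to 3.99 and 4.39 in the WT line and 4.50 and 4.21 in the ΔN line (limma adjusted p = 0.00241 and 0.00257). *Mob1b*, a partner of the LATS kinases, was also lower in both, by log2 fold changes of -0.85 and -0.73. *Amotl2*, another angiomotin, was higher in both, by 0.57 and 0.53. The TEAD targets *Ccn1* and *Ccn2* had log2 fold changes of 0.07 and 0.11 in the WT line and -0.06 and -0.15 in the ΔN line, and neither was called. *Lats2* was not analysed here.

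None of the other TEAD genes was called higher in the ΔN line, where *Tead4* rose. *Tead2*, with 85.2 and 106 CPM in parental ESCs, had 157 and 157 in the WT line and 99.1 and 96.0 in the ΔN line. It was upregulated in the WT line by a log2 fold change of 0.72 (limma adjusted p = 0.00251), and *Tead3* by 0.85 (limma adjusted p = 0.0183), whereas *Tead1* was lower in both derived lines, with log2 fold changes of -0.43 and -0.55, the first of them in the direction of *Tead4* in the WT line. In CPM per kb of exon, *Tead2* with a mean of 20 was above *Tead4* in parental ESCs, and *Tead4* with 30.1 was above *Tead2* with 20.4 in the ΔN line. Among all 12 tested relatives of the members' families, 4 were higher and 3 lower in the WT line (8.67% and 16.3% of all genes) and 1 higher and 1 lower in the ΔN line (6.2% and 13.5%), the latter near the background. *Tfap2a*, the relative of *Tfap2c* that also works in trophoblast, was lower in the WT line (-0.80, limma adjusted p = 0.0246), and *Gata4*, an endoderm factor, was higher in both derived lines (0.69 and 0.78).

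Genes of the trophoblast stem cell state were called in both directions in the ΔN line. Of 18 tested, 6 were higher and 3 lower there, against 6.2% and 13.5% of all genes. In the WT line 3 were higher and 2 lower, against 8.67% and 16.3%. The count of lower genes is near the background in both lines. The medians were 0.11 in the ΔN line and -0.04 in the WT line. *Eomes*, a T-box factor of trophoblast stem cells and of the primitive streak, had 4.89 and 4.27 CPM in parental ESCs, 4.44 and 5.93 in the WT line and 9.11 and 10.6 in the ΔN line, a log2 fold change of 0.96 (limma adjusted p = 0.00521). *Plet1*, a surface protein of trophoblast progenitors, was upregulated in the same line by 0.93 and *Bmp4*, a ligand that can push pluripotent cells toward trophoblast in some settings, by 0.72. *Sox21* (-1.04), *Fgfr2* (-0.96), the receptor through which FGF4 maintains trophoblast stem cells, and *Id2* (-0.83) were downregulated. In the WT line the higher genes were *Nr0b1* (0.83), *Ets2* (0.70) and *Dusp6* (0.51), of which *Nr0b1* is better known from ESCs. *Ets2* (0.57) and *Dusp6* (0.70) were higher in the ΔN line as well.

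Of 30 placental genes 13 passed the filter, and *Rhox5*, *Sfmbt2* and *Peg10* differed from parental ESCs in opposite directions in the derived lines. *Rhox5*, an X-linked homeobox gene of placenta and germ line, had 38.4 and 49.3 CPM in parental ESCs, 129 and 144 in the WT line and 8.76 and 5.74 in the ΔN line. The 3 lines did not overlap, and the log2 fold changes were 1.63 and -2.46 relative to parental ESCs (limma adjusted p = 0.000916 and 5.14e-05). *Rhox9* (-1.61) and *Rhox6* (-1.39) were also lower in the ΔN line. *Sfmbt2*, an imprinted Polycomb group gene of trophoblast, had 15.8 and 14.1 CPM in parental ESCs, 30.7 and 27.6 in the WT line and 7.61 and 6.47 in the ΔN line. Its log2 fold changes were 0.92 and -0.99 (limma adjusted p = 0.00256 and 0.00159). *Peg10*, a retrotransposon-derived imprinted gene needed for the placenta, went the other way, with 312 and 247 CPM in parental ESCs, 148 and 148 in the WT line and 452 and 461 in the ΔN line. *Wnt7b*, a ligand of the labyrinth, was higher in both derived lines, by 1.44 and 0.78. In all, 5 were higher and 1 lower in the WT line, where 8.67% and 16.3% of all genes were, and 4 were higher and 4 lower in the ΔN line, where 6.2% and 13.5% were.

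Of 18 listed keratin genes outside the simple-epithelium trio, 5 passed the filter. Among these, 2 were higher and 0 lower in the WT line (the lower count was also 0 at an unadjusted p and by voom). In the ΔN line 1 was higher and 1 lower. Over all genes the shares were 8.67% and 16.3% in the WT line, and 6.2% and 13.5% in the ΔN line. *Krt16* and *Krt222* also passed the filter but were not on the list, and 1 of them was lower in the WT line. *Krt13*, a type I keratin of stratified epithelium, rose in the ΔN line from 4.48 and 2.33 CPM in parental ESCs to 13.0 and 10.7 (log2 fold change 1.58, limma adjusted p = 0.00187), and had 2.93 and 3.08 in the WT line, so that, as for the trio, both ΔN libraries stood above the other 4. *Krt17* rose in the WT line from 34.2 and 39.5 to 110.0 and 116 CPM (1.59, limma adjusted p = 0.000197), and *Krt42* was higher there by 0.96 and lower in the ΔN line by -0.54. *Krt13*, *Krt17* and *Krt42* are among the 6 nearest tested genes of *Krt19* on chromosome 11, as are *Krt16* and *Krt222*. Within 1037 kb neighbouring type I keratins thus moved in different directions in the same line. In the WT line 2 of these 6 neighbours were higher and 1 lower, and their log2 fold changes ranged from -1.22 to 1.59. *Krt7*, a type II keratin of trophoblast, was not called, with log2 fold changes of 0.11 and -0.38.

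Junction and transport genes of epithelia, which the trophectoderm uses to pump fluid into the blastocoel, were called in both directions, with 7 higher and 3 lower of 24 tested in the WT line (8.67% and 16.3% of all genes) and 4 higher and 1 lower in the ΔN line (6.2% and 13.5%). The lower counts are near or under the background. The median log2 fold changes were 0.17 and 0.16. *Cldn4*, a tight junction claudin, had 76.9 and 97.9 CPM in parental ESCs, 164 and 173 in the WT line and 115 and 103 in the ΔN line, and was upregulated in the WT line by 0.95 (limma adjusted p = 0.00140). *Cldn6* was higher in both derived lines, by 0.62 and 0.50. *Dsp*, the desmosomal protein that anchors keratin filaments, was upregulated in the ΔN line by 0.64 (limma adjusted p = 0.0217), and *Atp1b1*, a subunit of the sodium pump, by 0.38. *Pkp2*, another desmosomal protein, was lower in both derived lines, by -0.35 and -0.53. The other lower genes of this list in the WT line were *Cgn* (-0.66, limma adjusted p = 0.0149) and *Tjp1* (-0.44, limma adjusted p = 0.00637). Neither was called in the ΔN line.

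**Figure D5:**
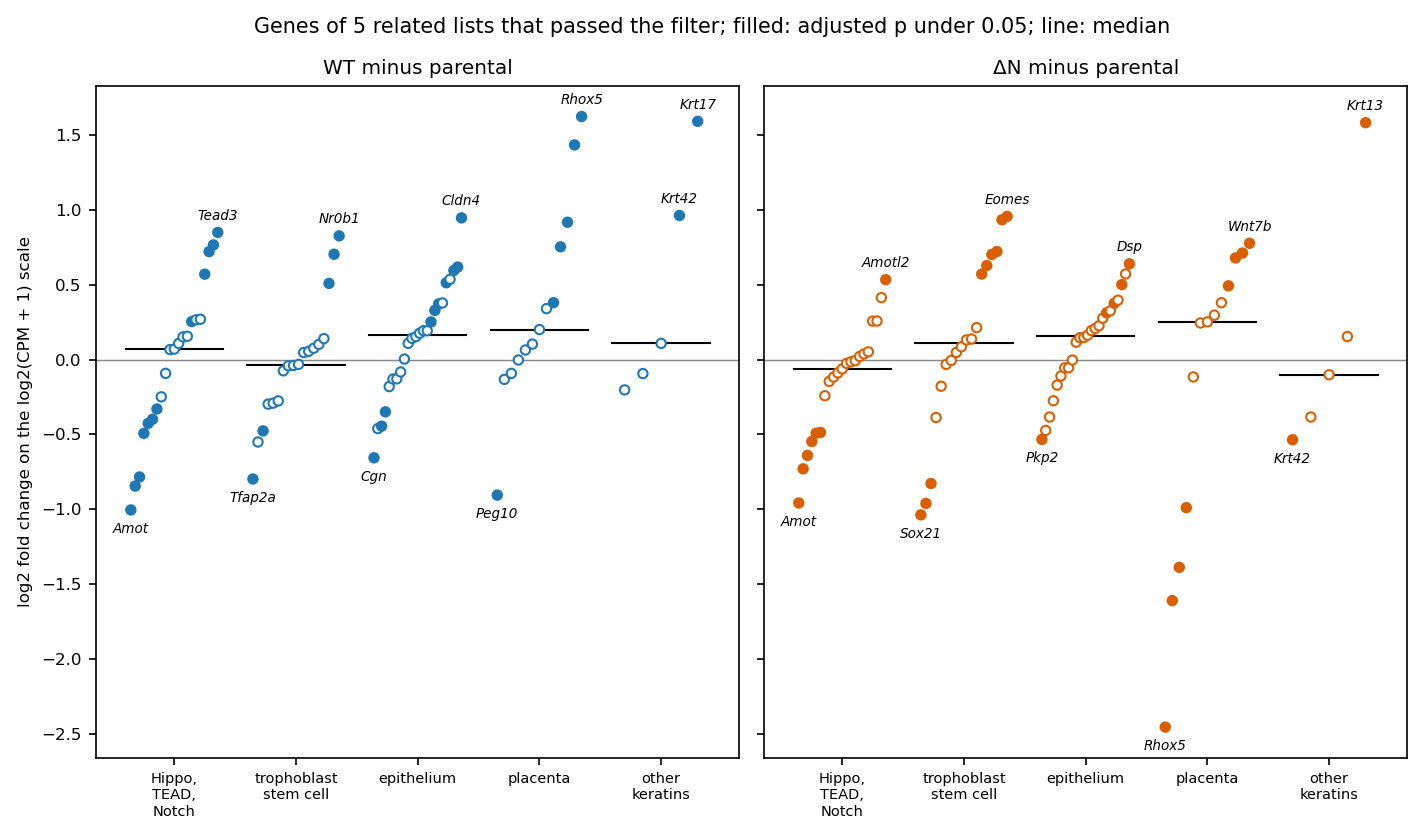
Log2 fold changes of the tested genes of 5 lists in the WT line (left) and the ΔN line (right) relative to parental ESCs, sorted within each list, with filled points for an adjusted p under 0.05, black lines for the medians, and the called genes at the ends named. The medians lie between -0.10 and 0.25 in each list, with called genes on both sides of 0 except for the listed keratins in the WT line. There both called genes are above 0, but *Krt16* and *Krt222*, of which 1 was lower in that line, are not drawn. *Rhox5* at -2.46 and 1.63 is at the edge of the placental genes.

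Markers of other cells were read beside these values. Of 10 trophoblast markers 2, *Prl3d1* and *Tpbpa*, the defining genes of giant cells and spongiotrophoblast, were at 0 reads in each library, *Plac1* had at most 2 reads and *Gcm1* at most 4. The summed level of the 10 was 11.6 and 12.8 CPM in the ΔN line and 6.21 to 8.18 in the other libraries. Only 2 of the 10, *Eomes* and *Hand1*, passed the filter. *Eomes* made up most of the sum in each library, whereas *Ascl2* and *Elf5*, also among the 10, had their fewest reads in the ΔN line. Primitive streak and mesoderm markers summed to 12.8 and 13.8 CPM in the ΔN line and 6.11 to 7.96 elsewhere, with 2 of 10 above the filter. They share *Eomes*, which made up most of that sum as well. Primitive endoderm markers, 7 of 12 above the filter, summed to 333 and 355 CPM in the ΔN line and 382 to 406 elsewhere. Of 8 fibroblast markers 3, *Lum*, *Dcn* and *Twist2*, were at 0 reads in each library, and the sum was 21.1 and 22.3 CPM in the WT line against 38.7 to 55.5 in the other libraries, of which *Thy1* made up most. The part of such cells in the keratin and *Hand1* values was not tested.

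The genes whose pattern over the 6 libraries was nearest to each member were sought among tested genes with a mean of at least 10 CPM, by Euclidean distance of the gene-centred log2(CPM + 1) values. Nearest to *Tead4* were *Myof* (distance 0.323), *Atp2a3* (0.354) and *Ccdc92b* (0.371), and nearest to *Tfap2c* were *Acss1* (0.163), *Brpf3* (0.204) and *Vill* (0.206). *Krt8* had *Cspg5* (0.190), *Plet1* (0.191) and *Myo1e* (0.198) beside it, and *Plet1* is one of the trophoblast stem cell genes above. *Krt18* was nearest to *Crebl2* (0.199), *Arhgef25* (0.200) and *Etnk1* (0.211), and *Krt19* to *Pianp* (0.270), *Sorbs3* (0.349) and *Fam234b* (0.349). *Crebl2*, *Etnk1*, *Pianp* and *Fam234b* lie on chromosome 6, the chromosome that was higher in the ΔN line and lower in the WT line. For *Hand1* they were *Myl6* (0.143), *Plekhf1* (0.175) and *Tor3a* (0.180). The log2(CPM + 1) scale understates the changes of the rare *Hand1*, so its nearness to these better expressed genes does not mean equal ratios of CPM. Among the members, *Krt18* and *Krt19* were nearest to each other at a distance of 0.370, *Krt19* was the member nearest to *Tead4* (0.382), and *Tfap2c* was at least 2.16 from any other tested member.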

How the data were processed

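Polyadenylated RNA was sequenced by the authors from 6 libraries, 2 for each of 3 lines; the study's methods speak of triplicates, and the 2 libraries per line that the labels and the deposited values hold were analysed here. Per the study's methods, ribosomal reads were removed with SortMeRNA, reads were trimmed with Trimmomatic and mapped to mm10 with STAR, and exon coverage per gene was turned into RPKM with a custom pipeline; the submitters' processing notes also name Bowtie2 2.3.4.3 and Subread 1.4.6-p4. The authors deposited RPKM values per library. Tables of the authors' own comparisons (mean reads, log2 fold changes, p-values) were not used, and the ChIP samples were not analysed here.

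The deposited values covered 50978 genes, of which 48077 were matched to GENCODE vM21, 137 of them through a RefSeq synonym, and 176 with a repeated or date-like name, 2659 without a match and 66 with several matches were left out. RPKM times the span of the gene came within 0.1 of a whole number of reads in 98.3 to 98.4% of cases (values of 20 reads or fewer), against 16.6 to 41.0% with the exon length. Multiplying RPKM by this span, with a constant common to the libraries, gave CPM and kept the authors' scaling between libraries, and the recovered reads were used for counts and exact Poisson intervals.

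The test was limma (version 3.58.1, R 4.3.3) on log2(CPM + 1), applied to genes with more than 1 CPM in 2 or more libraries. A single fit held the 6 libraries, the prior variance followed the mean, and p-values were adjusted by Benjamini-Hochberg over all genes tested. A call is an adjusted p under 0.05. The code was tested on simulated data. With 2 libraries against 2, an exact permutation test cannot go below p = 0.333 (two-sided) and was not used. Levels between genes are CPM per kb of exon (union of annotated exons). Promoter sequences and motifs come from the RefSeq table. Text and figures used python 3.11.15, pandas 2.3.3, scipy 1.17.1 and matplotlib 3.10.9.

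Named were the 10 members, up to 3 called genes of largest change per list, direction and comparison, the 3 nearest tested genes by pattern of each called member, and *Pramel7*. *Yap1*, *Wwtr1*, *Ccn1*, *Ccn2*, *Krt7*, *Krt16*, *Krt222*, *Plac1* and *Gcm1* were named after their values were seen. The synonym matching was added after the values of the members were seen. The members and the lists were chosen with earlier results of these data known. Alternatives were other pseudocounts (0.1 and 5), no filter, a mean of at least 10 CPM, a replicate block, fits of the compared lines only, median-ratio scaling, centring on chromosomes, voom on recovered reads, RPKM as deposited, a limit of 0.58 on the log2 fold change, and leaving out each library.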

Additional observations from a re-analysis of the deposited data

How the results depend on the processing

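In the ΔN line against parental ESCs, *Tead4*, *Tfap2c* and *Krt8* kept their direction and call under each alternative run, and the 6 calls of members ranged from 3 to 6 when single libraries were left out. RPKM as deposited left 1 member, *Tfap2c*, to test, with 1 call against parental ESCs in the ΔN line, 0 in the WT line and 0 between the derived lines. The 3 calls of members in the WT line became 0 with no filter, with only the compared lines in the fit, with median-ratio scaling and with either limit of 0.58 on the log2 fold change, and 1 with a pseudocount of 5, with voom and with the replicate block. Leaving out single libraries gave 0 to 4 calls there and 4 to 5 between the derived lines. The cause was not tested.

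Over all genes, with 3242 calls in the WT line, 2563 in the ΔN line and 2637 between them, the adjusted p with the limit of 0.58 gave 1619, 1457 and 1471, and the unadjusted p with that limit 1767, 1590 and 1613. No filter gave 1902, 1699 and 1434, and RPKM as deposited, with 2354 genes tested, gave 362, 271 and 258. A mean of at least 10 CPM gave 1608 in the ΔN line. Fits of only the compared lines gave 1700 in the ΔN line and 4659 between the derived lines. Without single libraries the counts ranged from 696 to 4387 in the WT line, from 839 to 4277 in the ΔN line and from 708 to 4657 between them.

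In the WT line against parental ESCs, *Krt8*, at 0.01, reversed to -0.15 without parental replicate 1 and to -0.06 without WT replicate 1, and *Tfap2c*, at -0.15, reversed to 0.17 without parental replicate 2 and reached -0.47 without parental replicate 1. With centring on chromosomes *Hand1* gained a call there (0.61, limma adjusted p = 0.0394). Where a library is left out, its line has 1 library, which is assumed to vary like the others.

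Replicate numbers did not pair the samples: deviations of same-numbered libraries correlated at 0.207, -0.249 and -0.103 over 12991 genes. With the replicate block, 2724, 2109 and 2185 genes were called in the 3 comparisons, and *Tead4* and *Krt19* lost their calls in the WT line (limma adjusted p = 0.0772 and 0.0629).

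Depth limits *Cdx2*, *Gata3*, *Elf5* and *Ascl2*, and 1 clone per derived line limits all comparisons.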
